A study of Homo sapiens with 8 samples.

Results

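CKS2 encodes a small subunit of the cyclin-dependent kinases that drive entry into mitosis. It is described here together with its near relative CKS1B and 8 other genes of the G2 and M phases: CDK1, the cyclin genes CCNA2, CCNB1 and CCNB2, the kinase genes PLK1, AURKA and AURKB, and CDC20. CKS2 was chosen by its measured FPKM difference on induction of a K700E transgene, and the other 9 genes were added to ask whether other G2 and M phase genes shared that difference. The values of CKS2 in the K700E libraries are therefore a description and carry no test. All 10 genes were found among 23468 genes, 9 of them by name, through 20 reference transcripts and 23 assembled spliced transcripts that share introns with them. AURKA was the 1 gene found through its RefSeq accessions, because its transcripts had no gene name in the deposited lists. All 10 were above 0 in every library and were among the 11350 genes tested.

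The libraries came from K562 cells, a human erythroleukaemia line, carrying a doxycycline-inducible SF3B1 transgene. SF3B1 is a splicing factor of the U2 snRNP and acts where the branch point of an intron is recognised. The 4 groups were K700E_induced (SF3B1-K700E transgene with 1 ug/ml doxycycline for 48 h), K700E_uninduced (the same transgene without induction), WT_induced (wild-type SF3B1 transgene with the same doxycycline treatment) and WT_uninduced (that transgene without induction), with 2 libraries each. All cells grew in 10% serum, and total RNA was sequenced after removal of ribosomal RNA. All groups derive from 1 cell line, the promoter behind the transgene is not given in the sources used here, and only induced cells received doxycycline, so the drug and the transgene cannot be told apart within a line. The sources do not say whether replicates were separate cultures. A p-value here therefore measures spread between libraries that may be technical.

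Entry into mitosis depends on CDK1 bound to a cyclin, and the CKS proteins join this complex and help it act on substrates that already carry phosphates. Cyclin A2 acts in S and G2 phase and cyclins B1 and B2 at the entry into mitosis. PLK1 and the Aurora kinases build the spindle and divide the chromosomes, and CDC20 activates the anaphase-promoting complex, the ubiquitin ligase that destroys the B cyclins and ends mitosis. CKS1B is also known as a cofactor of the ligase SCF-SKP2, which degrades the inhibitor p27. Many of these genes are repressed in resting cells and switched on late in the cycle through the cell cycle homology region (CHR) and CCAAT elements in their promoters. K562 cells divide continuously, so their RNA holds cells of all phases.

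The promoters of CKS2, CKS1B, CCNB2 and PLK1 carried the letters of the cell cycle homology region, TTTGAA, at nearly the same place. They are shown from 250 bases before the start of transcription to 50 bases after it, from RefSeq on GRCh38.p14, with both searched motifs in capitals on either strand (TTTGAA or its complement TTCAAA, and CCAAT or its complement ATTGG). CKS2 lies at chr9:89310945-89311244, CKS1B at chr1:154974431-154974730, CCNB2 at chr15:59104896-59105195 and PLK1 at chr16:23678639-23678938, all on the plus strand.
CKS2: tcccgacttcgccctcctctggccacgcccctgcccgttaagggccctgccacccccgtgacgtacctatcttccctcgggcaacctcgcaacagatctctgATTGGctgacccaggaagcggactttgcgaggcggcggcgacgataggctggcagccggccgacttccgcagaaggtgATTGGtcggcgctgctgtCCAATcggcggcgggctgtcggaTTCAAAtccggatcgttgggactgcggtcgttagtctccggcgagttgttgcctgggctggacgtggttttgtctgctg
CKS1B: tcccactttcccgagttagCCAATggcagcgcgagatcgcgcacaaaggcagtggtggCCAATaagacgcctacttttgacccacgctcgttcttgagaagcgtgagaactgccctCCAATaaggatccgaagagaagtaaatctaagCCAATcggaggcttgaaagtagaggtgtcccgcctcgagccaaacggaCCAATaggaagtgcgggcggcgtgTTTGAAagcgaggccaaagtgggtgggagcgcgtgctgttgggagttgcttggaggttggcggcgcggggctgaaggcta
CCNB2: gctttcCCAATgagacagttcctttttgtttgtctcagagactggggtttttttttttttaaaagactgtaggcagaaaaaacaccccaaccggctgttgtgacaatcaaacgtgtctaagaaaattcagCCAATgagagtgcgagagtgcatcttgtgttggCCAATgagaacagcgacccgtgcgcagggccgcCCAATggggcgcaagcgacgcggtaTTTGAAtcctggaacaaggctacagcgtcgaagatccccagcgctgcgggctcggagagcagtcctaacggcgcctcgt
PLK1: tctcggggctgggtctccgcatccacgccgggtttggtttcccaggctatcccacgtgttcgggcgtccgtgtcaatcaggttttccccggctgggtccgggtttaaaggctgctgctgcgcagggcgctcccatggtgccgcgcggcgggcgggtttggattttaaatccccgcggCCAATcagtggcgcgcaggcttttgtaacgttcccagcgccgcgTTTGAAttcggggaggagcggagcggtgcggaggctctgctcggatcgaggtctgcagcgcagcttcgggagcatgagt
Counted from the start of transcription, the first base of the TTTGAA match was at -29 in CKS2, -30 in CKS1B, -29 in CCNB2 and -29 in PLK1. The nearest CCAAT match before it was at -52 in CKS2, -54 in CKS1B, -54 in CCNB2 and -73 in PLK1. RefSeq windows were matched for 9 of the 10 genes, in 11 windows, since CDK1 and AURKB each had more than 1. TTTGAA was found in 7 of the 11 windows, from 6 genes, against 15.2% of 35116 windows of all genes. CCAAT was found in 11 of the 11 windows, against 34.6% of all windows. CDC20 and CDK1 held TTTGAA at other places, and the windows of CCNA2, CCNB1 and AURKB did not hold these letters. The motifs do not overlap each other in the sequences shown, and a match is a description of letters, not of binding.

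CKS2 and CKS1B encode closely related proteins, so their mRNAs could in principle share reads. The coding sequences of the 2 genes, 240 nt each, are shown from GENCODE 29 (GRCh38), with the bases that differ in capitals.
CKS2: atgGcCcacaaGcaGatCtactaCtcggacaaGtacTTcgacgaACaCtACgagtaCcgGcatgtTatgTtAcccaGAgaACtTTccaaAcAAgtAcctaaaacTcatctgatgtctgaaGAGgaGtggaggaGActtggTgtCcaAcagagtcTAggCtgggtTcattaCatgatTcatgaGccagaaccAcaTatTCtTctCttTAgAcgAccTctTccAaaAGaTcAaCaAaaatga
CKS1B: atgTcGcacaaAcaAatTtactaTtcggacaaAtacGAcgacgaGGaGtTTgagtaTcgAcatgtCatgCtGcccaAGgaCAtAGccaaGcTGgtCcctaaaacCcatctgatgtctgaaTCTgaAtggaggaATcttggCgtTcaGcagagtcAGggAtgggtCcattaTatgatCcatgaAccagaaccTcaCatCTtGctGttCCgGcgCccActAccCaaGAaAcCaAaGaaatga
They were identical at 175 positions and different at 65 (72.9% identity), and the longest run of shared bases was 15 nt, over the whole mRNAs as well. The read length is not given in the sources used here.

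SF3B1 itself had 28.98 and 39.52 FPKM in K700E_induced, against 34.6 and 30.4 FPKM in K700E_uninduced. It had 36.6 and 27.3 FPKM in WT_induced, against 37.7 and 31.7 FPKM in WT_uninduced. The groups overlapped in both lines, and the highest library was K700E_induced replicate 2. A change in total SF3B1 with doxycycline was not tested, and induction was not checked by it. Read totals are not used here, and the coverage per FPKM, which follows depth, lay between 3.29 and 4.77. The K562 erythroid markers were all 9 expressed, with summed levels of 6964 to 10280 FPKM in K700E_induced, 8856 to 13310 in K700E_uninduced, 6099 to 6299 in WT_induced and 6493 to 6733 in WT_uninduced. Stromal and epithelial markers summed to 655 to 732 FPKM in K700E_induced, 1143 to 1445 in K700E_uninduced, 532 to 720 in WT_induced and 554 to 843 in WT_uninduced, and all 5 tested of 7 were below 0 on K700E induction. Myeloid markers, with 2 of 6 tested, summed to 10.8 to 12.3 FPKM in K700E_induced, 37.3 to 42.2 in K700E_uninduced, 35.5 to 54.1 in WT_induced and 35.2 to 63.6 in WT_uninduced. Lymphoid markers, with 2 of 6 tested, summed to 10.0 to 10.4 FPKM in K700E_induced, 21.8 to 63.4 in K700E_uninduced, 8.40 to 23.1 in WT_induced and 25.5 to 38.6 in WT_uninduced. COL3A1, CD14, MPO, MS4A1 and CD2 were at 0 in all 8 libraries. The part of these marker differences in the values that follow was not tested. WT_uninduced replicate 2 stood apart for CKS2, so values that rest on it are also given without it. It also had the fewest assembled transcripts, 24926, followed by K700E_induced replicate 1 with 27388. The other libraries had 34386 to 45570, with 38948 in K700E_induced replicate 2. The part of this difference in the CKS2 values was not tested.

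CKS2 was about as high in both K700E_induced libraries as in 1 of the WT_uninduced libraries, and was low in the other 5. Its single reference transcript, NM_001827, has 3 exons and 613 nt and lies at 91926113 to 91931618 on the plus strand of chromosome 9 (hg19). It was listed at 142 and 102 FPKM in K700E_induced, against 33.2 and 18.7 FPKM in K700E_uninduced. The WT libraries had 34.9 and 29.7 FPKM in WT_induced, against 38.2 and 119 FPKM in WT_uninduced. FPKM is a fragment count divided by transcript length and library total, so levels can be compared between genes. The deposited intervals, which cover error within 1 library and not the spread between libraries, were 135 to 149 FPKM for K700E_induced replicate 1, 95.4 to 108 for K700E_induced replicate 2 and 112 to 126 for WT_uninduced replicate 2. No assembled spliced CKS2 form of 300 nt or more was counted in any library, so its level is that of the reference transcript alone. Unspliced assembled fragments on its strand, 0 to 2 per library, were not added to it.

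**Figure D1:**
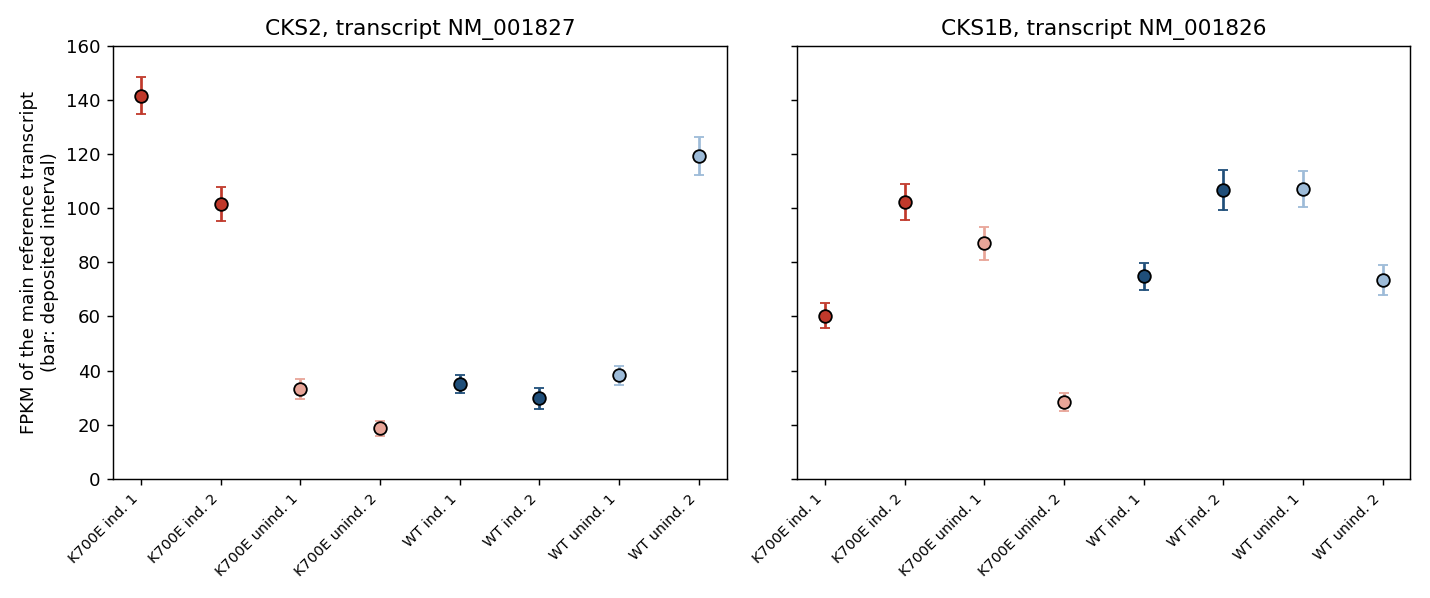
FPKM of the main reference transcript of CKS2 (left) and of CKS1B (right) in each of the 8 libraries, with the deposited interval as the bar. CKS2 was above 100 FPKM in both K700E_induced libraries and in WT_uninduced replicate 2 and below 40 in the other 5, while the CKS1B transcript was lowest in K700E_uninduced replicate 2, at 28.3 FPKM.

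On induction of the K700E transgene the log2 fold change of CKS2 was 2.25 (SE 0.54), and the groups did not overlap. The ratio was 4.27 in replicate 1 and 5.44 in replicate 2, which the deposited file names place in separate sequencing lanes. Against WT_induced, K700E_induced was higher by 1.88 on the log2 scale (SE 0.54), again without overlap. These values chose the gene or share libraries with those that did, and have no test. The WT line gave a log2 fold change of -1.06 on induction (SE 0.54, limma's adjusted p = 0.998), so the difference did not pass the test. It came from WT_uninduced replicate 2: the ratio was 0.913 in replicate 1 and 0.249 in replicate 2. Without that library the WT value was -0.26, and K700E_uninduced against WT_uninduced was -0.63 rather than -1.43. The difference between the inductions was 3.31 on the log2 scale (SE 0.77), and 2.50 without WT_uninduced replicate 2.

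CKS2 is a short transcript, which yields fewer fragments at a given FPKM than a long one. Among the 274 genes tested whose longest reference transcript has 500 to 750 nt, the median K700E induction was 0.02, and CKS2 had the 20th highest value. In that class 24 of the 274 genes had a log2 fold change of 2 or more, against 381 of all 11350 genes tested (3.357%). Such values were thus more common among short transcripts. Of all 11350 genes tested, 233 (2.05%) were higher on K700E induction and lower on WT induction without overlap of the groups, as CKS2 was.

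CKS1B did not follow CKS2. It was listed at 60.3 and 102 FPKM in K700E_induced, against 87.0 and 98.8 FPKM in K700E_uninduced, and at 74.9 and 107 FPKM in WT_induced, against 107 and 98.3 FPKM in WT_uninduced. The groups overlapped in both lines, and the lowest library was K700E_induced replicate 1. Its log2 fold change on K700E induction was -0.23 (SE 0.34) and limma's adjusted p was 1. On WT induction it was -0.20 (SE 0.34), also with adjusted p of 1. The K700E value was 0.66 with reference transcripts alone, since in K700E_uninduced replicate 2 an assembled form held 70.4 of its 98.8 FPKM. The form begins inside the gene and has a donor in the first intron that no reference transcript has, at 1256 nt from the nearest reference donor, with the reference acceptor. Pearson's r of CKS2 with CKS1B over the 8 libraries was -0.38, and 0.34 with reference transcripts alone, as a description over libraries that share groups.

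CDK1, the kinase that the CKS proteins bind, was highest in WT_uninduced replicate 2, the library in which CKS2 was also high. It had 69.6 and 51.0 FPKM in K700E_induced, against 44.9 and 42.3 FPKM in K700E_uninduced. In the WT line it had 44.1 and 63.4 FPKM in WT_induced, against 61.6 and 105 FPKM in WT_uninduced. Both K700E_induced libraries were above both K700E_uninduced ones, with a log2 fold change of 0.45 (SE 0.37), and limma's adjusted p was 1. On WT induction the value was -0.60 (SE 0.37, adjusted p = 0.998) and the groups overlapped. The uninduced lines differed by -0.89 (SE 0.37) without overlap, with limma's adjusted p of 0.972, so the difference did not pass although its unadjusted p was under 0.05. Without WT_uninduced replicate 2 that difference was -0.52. In WT_uninduced replicate 2 an assembled form of 7 introns held 64.6 of the 105 FPKM. With reference transcripts alone CDK1 was 40.4 FPKM there, and the highest library was then WT_uninduced replicate 1, at 61.6 FPKM.

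The A and B cyclins, which bind CDK1, gave positive fold changes on K700E induction, and none passed the test. CCNA2 had 63.4 and 109 FPKM in K700E_induced, against 70.7 and 59.1 FPKM in K700E_uninduced, and 76.2 and 54.3 FPKM in WT_induced, against 52.8 and 76.8 FPKM in WT_uninduced. The groups overlapped in both lines, with 1 high library, K700E_induced replicate 2. Its log2 fold change was 0.36 (SE 0.38) on K700E induction and 0.01 (SE 0.38) on WT induction, with limma's adjusted p of 1 for both. The K700E value was -0.02 without K700E_induced replicate 2.

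CCNB1 varied most among the cyclins. It had 83.0 and 50.4 FPKM in K700E_induced, against 77.7 and 14.3 FPKM in K700E_uninduced. WT_induced had 53.1 and 43.6 FPKM, against 48.0 and 45.1 FPKM in WT_uninduced. K700E_uninduced replicate 2 was low and the other 7 libraries lay between 43.6 and 83.0 FPKM, so the groups overlapped. The log2 fold change of 0.94 (SE 0.68, limma's adjusted p = 1) on K700E induction was -0.22 without K700E_uninduced replicate 2. In K700E_induced replicate 1 an assembled form of 363 nt with 1 intron held 50.8 FPKM and the full-length NM_031966 held 32.2 FPKM.

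CCNB2 was the cyclin gene whose induced K700E libraries stood above all other 6. It had 76.0 and 103 FPKM in K700E_induced, against 56.8 and 67.1 FPKM in K700E_uninduced, and 44.6 and 65.9 FPKM in WT_induced, against 50.8 and 65.3 FPKM in WT_uninduced. No spliced form of 300 nt or more but the reference transcript NM_004701 was counted above 0. Unspliced assembled fragments on its strand, 0 to 2 per library, were not added to its level. The log2 fold change on K700E induction was 0.52 (SE 0.34, limma's adjusted p = 1), and that of K700E_induced against WT_induced was 0.69 (SE 0.34, limma's adjusted p = 0.949). On WT induction it was -0.09 (SE 0.34), and the groups overlapped.

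**Figure D2:**
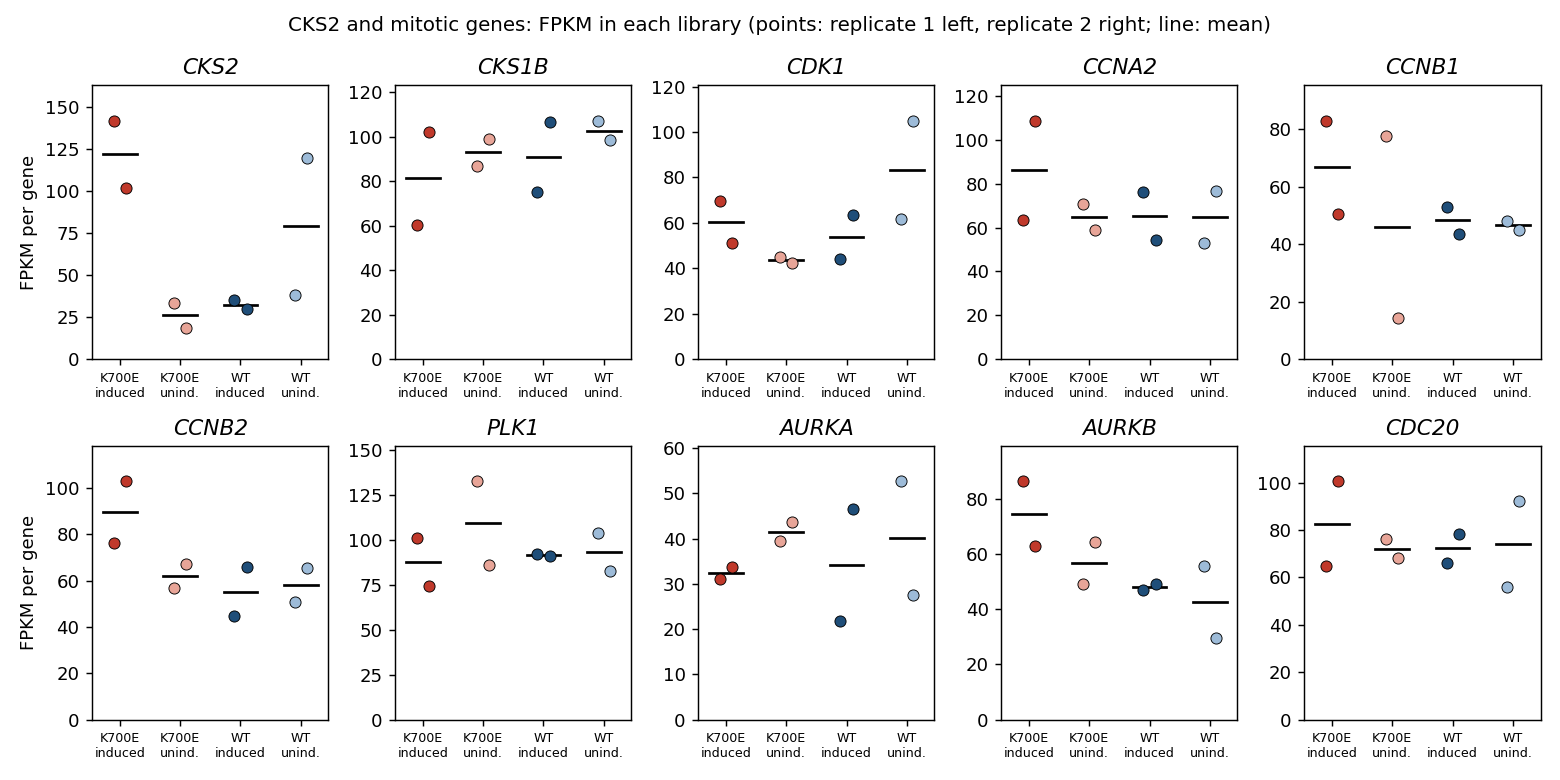
FPKM per gene of the 10 genes in each library, by group, with replicate 1 at the left and replicate 2 at the right and the group mean as a line; each panel has its own vertical axis, starting at 0. CKS2 shows the widest spread, with a highest library 7.58 times the lowest, and CCNB2 is the cyclin gene with both K700E_induced libraries above the other 6.

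None of the mitotic kinase genes passed the test on K700E induction. PLK1, which acts in centrosome maturation and spindle assembly, had 101 and 74.4 FPKM in K700E_induced, against 133 and 86.4 FPKM in K700E_uninduced, and 92.0 and 90.9 FPKM in WT_induced, against 104 and 82.6 FPKM in WT_uninduced. Its log2 fold change was -0.30 (SE 0.32) on K700E induction and -0.02 (SE 0.32) on WT induction, with limma's adjusted p of 1 for both and overlapping groups. PLK1 was the gene with the highest mean over the 8 libraries, at 95.5 FPKM.

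AURKA, the Aurora kinase of the centrosome and spindle poles, had 31.0 and 33.8 FPKM in K700E_induced, against 39.5 and 43.7 FPKM in K700E_uninduced. In the WT line it had 21.8 and 46.5 FPKM in WT_induced, against 52.6 and 27.6 FPKM in WT_uninduced. The K700E groups did not overlap, the induced libraries being lower, with a log2 fold change of -0.35 (SE 0.48, limma's adjusted p = 1). Its WT groups overlapped, with a value of -0.26 (SE 0.48, limma's adjusted p = 1).

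AURKB, the kinase of the chromosomal passenger complex, had 86.2 and 62.9 FPKM in K700E_induced, against 49.0 and 64.3 FPKM in K700E_uninduced. It had 47.0 and 49.2 FPKM in WT_induced, against 55.5 and 29.6 FPKM in WT_uninduced. The K700E groups overlapped, with a log2 fold change of 0.39 (SE 0.40, limma's adjusted p = 1), whereas K700E_induced lay above WT_induced without overlap (0.61, SE 0.40, limma's adjusted p = 0.949). CDC20 had 64.8 and 100.5 FPKM in K700E_induced, against 76.1 and 68.1 FPKM in K700E_uninduced, and 66.3 and 78.2 FPKM in WT_induced, against 56.1 and 92.0 FPKM in WT_uninduced. Its groups overlapped in both lines, with log2 fold changes of 0.17 (SE 0.36) on K700E induction and -0.0016 (SE 0.36) on WT induction, both with limma's adjusted p of 1.

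Set together, 6 of the 9 genes other than CKS2 were above 0 on K700E induction, with a median log2 fold change of 0.36, against -0.01 for all genes, of which 48.4% were above 0. None passed the test, where 0.00881% of all genes did, and none had an unadjusted p under 0.05, where 4.7% of all genes did. Groups without overlap were found for CDK1 and CCNB2, which were higher (15.8% of all genes), and for AURKA, which was lower (17.9% of all genes). The count above 0 was 4 of 9, with a median of -0.02, without K700E_induced replicate 2. With reference transcripts alone it was 5 of 9, with a median of 0.058. The largest of the 9 values was that of CCNB1, at 0.94, against 2.25 for CKS2. The CCNB1 value counts assembled forms. With reference transcripts alone CCNB1 had 32.2 and 37.4 FPKM in K700E_induced, against 77.7 and 14.3 FPKM in K700E_uninduced.

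On WT induction 3 of the 9 were above 0 (50.3% of all genes), with a median of -0.02 against 0.005 for all genes, and the groups overlapped for all 9. It was 5 of 9 both with reference transcripts alone and without WT_induced replicate 1. None passed the test (0.00881% of all genes), and none had an unadjusted p under 0.05 (4.37% of all genes). K700E_induced against WT_induced had 7 of 9 above 0 (49.5% of all genes), with a median of 0.17 against 0 for all genes. This was 4 of 9, with a median of -0.014, with reference transcripts alone, 5 of 9, with a median of 0.050, without WT_induced replicate 1, and 5 of 9, with a median of 0.14, without K700E_induced replicate 2. The values were 0.42 (SE 0.68) for CCNB1, 0.36 (SE 0.38) for CCNA2, 0.17 (SE 0.37) for CDK1, 0.16 (SE 0.36) for CDC20, 0.02 (SE 0.48) for AURKA, -0.08 (SE 0.32) for PLK1 and -0.19 (SE 0.34) for CKS1B. Groups were separate and higher for CCNB2 and AURKB (16.4% of all genes), and none of the 9 passed (0.0264% of all genes) or had an unadjusted p under 0.05 (5.28% of all genes). Between the uninduced lines 5 of 9 were above 0 (51.4% of all genes), which was 3 of 9 without K700E_uninduced replicate 1 or without WT_uninduced replicate 1, and CDK1 was the 1 gene with separate, lower groups (15.2% of all genes) and the 1 with an unadjusted p under 0.05 (4.64% of all genes). For the other 8 genes the uninduced difference lay between -0.48 for CCNB1 and 0.45 for AURKB. The interaction gave adjusted p of 0.999 by limma for all 9, where 0.0176% of all genes passed, and its highest value among them was that of CDK1, 1.06 (SE 0.53). None of the 9 had an unadjusted p under 0.05 there (4.25% of all genes). These comparisons share libraries and are not independent of each other.

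**Figure D3:**
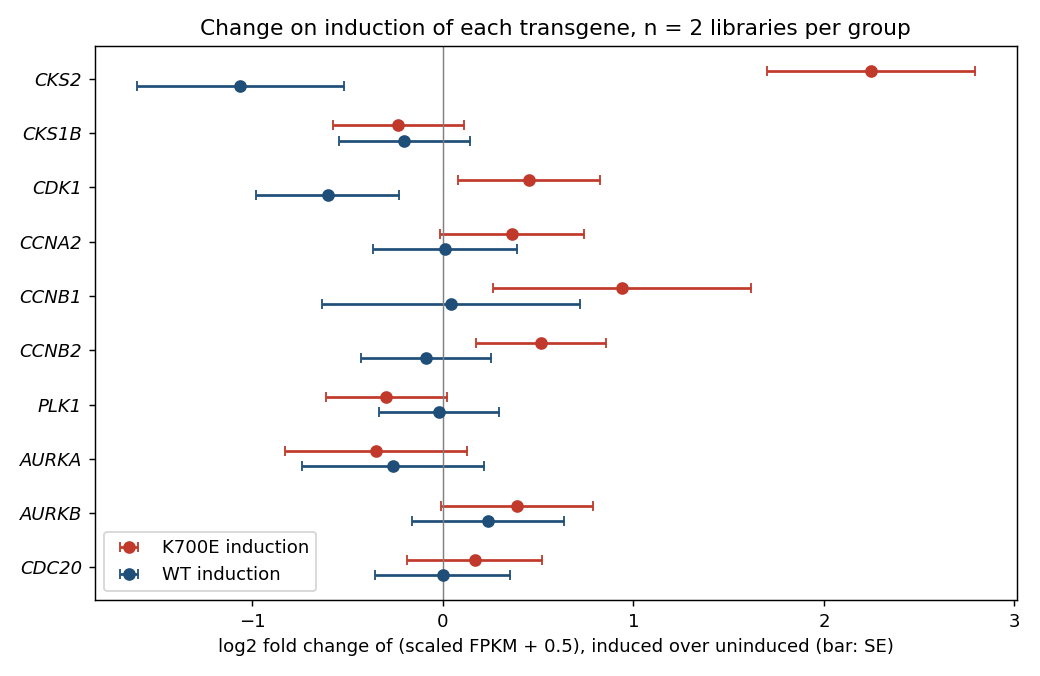
Log2 fold change of each of the 10 genes on K700E induction (upper point of each pair, red) and on WT induction (lower point, blue), with the SE as the bar, from 2 libraries per group. CKS2 is at 2.25 and -1.06, while the other 9 genes lie between -0.35 and 0.94 on K700E induction and between -0.60 and 0.24 on WT induction.

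The order of levels changed mainly through CKS2. By mean FPKM it was the highest of the 10 genes in K700E_induced, at 122 ± 28.3 (SD, n = 2), and the lowest in K700E_uninduced, at 25.9 ± 10.3 (SD, n = 2), and in WT_induced, at 32.3 ± 3.68 (SD, n = 2). In WT_uninduced it was the 4th, at 78.8 ± 57.4 (SD, n = 2). Over all 8 libraries the means ran down from PLK1 at 95.5 FPKM and CKS1B at 91.9 FPKM through CDC20 at 75.3, CCNA2 at 70.3, CCNB2 at 66.2, CKS2 at 64.7, CDK1 at 60.2, AURKB at 55.5 and CCNB1 at 51.9 to AURKA at 37.1 FPKM. The ranges of neighbours in this order overlapped throughout. The highest library was 1.78 to 2.91 times the lowest for 8 genes, 5.79 times for CCNB1 and 7.58 times for CKS2.

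Some patterns over the 8 libraries were alike. Of the other 9 genes CDK1 was most like CKS2, with a Pearson r of 0.66 on the log2 scale, in place 160 of 3597 genes with a mean of 20 FPKM or more and above 0 in all libraries. CCNB1 (0.54), CCNB2 (0.52), CCNA2 (0.50) and CDC20 (0.41) followed, AURKB was at 0.02, and PLK1 (-0.32), CKS1B (-0.38) and AURKA (-0.47) were below 0. The r of CDK1 was -0.11 with reference transcripts alone, which leave out its assembled forms, and 0.54 without WT_uninduced replicate 2. These settings were added after the values were seen. With reference transcripts alone CCNB1 was at 0.12, CDC20 at 0.11 and AURKA at 0.13, and without WT_uninduced replicate 2 AURKB was at 0.64, so this order of likeness depends on the forms counted and on that library. Among the 45 pairs of the 10 genes the median r was 0.02 and 24 were above 0, from -0.62 for PLK1 with CDC20 to 0.74 for CCNA2 with CDC20. The points are 8 libraries in 4 groups, and FPKM values of a library share its normalization.

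The genes most like CKS2 over the 8 libraries were C6orf48 (r = 0.954), TMEM183A (0.930), NUP62 (0.925), BCL7B (0.913) and PKM (0.899). C6orf48, a host gene of small nucleolar RNAs, had 354 and 241 FPKM in K700E_induced, 184 and 146 in K700E_uninduced, 161 and 171 in WT_induced and 160 and 285 in WT_uninduced. Its high libraries were thus the same as those of CKS2, WT_uninduced replicate 2 included. The genes with the lowest r were SLC52A2 (-0.941), PAIP2 (-0.938) and GAPVD1 (-0.932). PAIP2, an inhibitor of poly(A)-binding protein, had 13.2 and 31.5 FPKM in K700E_induced, 54.4 and 76.3 in K700E_uninduced, 34.7 and 59.6 in WT_induced and 42.5 and 17.0 in WT_uninduced. None of these 8 genes was among the cell cycle lists used here.

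No gene of a list of 47 other G2 and M genes passed the test on K700E induction. Of the 46 tested, 33 were above 0 and 13 below, with a median log2 fold change of 0.24 against -0.01 for all genes. Unadjusted, 2 genes had a p under 0.05, where 4.7% of all genes did, a share near that background. The 33 became 29 to 34 when single libraries were left out and 30 with reference transcripts alone. On WT induction 23 were above 0 and 23 below, with a median of 0.02 against 0.005 for all genes. Without WT_induced replicate 1 it was 31 of 46, with a median of 0.11, and with reference transcripts alone 18 of 46, with a median of -0.13. K700E_induced against WT_induced gave 21 above 0 and a median of -0.02 against 0 for all genes. Between the uninduced lines 14 were above 0 and 32 below, with a median of -0.15 against 0.02. The summed level of the 46 genes was 1731 and 1952 FPKM in K700E_induced, against 1541 and 1604 FPKM in K700E_uninduced, and 1803 and 1940 FPKM in WT_induced, against 1698 and 1678 FPKM in WT_uninduced. K700E_uninduced was lowest by this sum, and the induced groups overlapped. By the mean log2 level WT_uninduced replicate 2 (4.64) lay below K700E_uninduced replicate 2 (4.66). These sums were not tested, and in bulk samples the share of cells in G2 and M phase and the RNA per cell cannot be told apart.

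Among these genes CDCA3, an adaptor that triggers entry into mitosis, was the highest of the 46 tested, with a fold change near that of CKS2. It had 40.8 and 79.3 FPKM in K700E_induced, against 7.99 and 12.6 FPKM in K700E_uninduced, and 6.63 and 19.9 FPKM in WT_induced, against 24.0 and 13.7 FPKM in WT_uninduced. The K700E groups did not overlap, at 2.45 (SE 0.65), and limma's adjusted p was 0.978. Of all genes tested, 15.8% were higher without overlap and 3.357% had a log2 fold change of 2 or more. ANP32E, a histone chaperone, was the next at 0.91 (SE 0.35, limma's adjusted p = 0.985). The lowest were GAS2L3 at -0.88 (SE 1.63), a linker of actin and microtubules, and ECT2 at -0.65 (SE 0.50), the exchange factor that starts cytokinesis, both with limma's adjusted p of 1.

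Partners of the 10 genes gave no call on K700E induction either, where 0.00881% of all genes passed. The 1 gene that passed had a log2 fold change of 16.97, so the lack of a call cannot decide whether smaller changes are present. Among 12 regulators of CDK1, 11 were tested and 5 were above 0, with a median of -0.06. PKMYT1, a kinase that inhibits CDK1, was at 102 and 114 FPKM in K700E_induced and at 48.4 and 59.3 FPKM in K700E_uninduced, a log2 fold change of 1.01 (SE 0.51, limma's adjusted p = 1) without overlap. In the WT line it had 273 and 85.2 FPKM in WT_induced, against 66.5 and 89.6 FPKM in WT_uninduced, with overlap, and a value of 0.97 (limma's adjusted p = 0.998), and the interaction was 0.03 (limma's adjusted p = 0.999). CDK7, the kinase that activates CDK1, was at 1.22 (SE 1.20) with overlap, CDC25A, a phosphatase that activates CDKs, at -0.45 (SE 0.58) and MNAT1, a partner of CDK7, at -1.94 (SE 0.97), each with limma's adjusted p of 1. Of 7 Aurora and passenger complex partners tested, 5 were above 0, with a median of 0.22. INCENP, the scaffold of that complex, was at 0.58 (SE 0.45), TACC3 at 0.36 (SE 0.49), TPX2, the activator of Aurora A, at -0.03 (SE 0.29) and BORA at -0.06 (SE 1.97).

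The anaphase-promoting complex and checkpoint genes had 24 tested of 26, of which 6 were above 0 and 18 below, with a median of -0.27. Of all genes 48.4% were above 0. None of the 24 had an unadjusted p under 0.05 (4.7% of all genes). K700E_induced against WT_induced gave 12 above 0 and 11 below, with a median of 0.01. On K700E induction ANAPC4 (1.17, SE 1.46) and TTK (0.68, SE 0.64), a spindle checkpoint kinase, were the highest. ANAPC2 (-1.13, SE 0.74) was the lowest but for ANAPC10, which was listed at 0 in 6 libraries. The list of the SCF-SKP2 ligase, in which CKS1B acts, holds 4 subunit genes and the genes of 2 substrates, CDKN1B and CDKN1A, which are also on the list of CDK inhibitors. It had 2 of 6 above 0 and a median of -0.09. RBX1 was at 1.51 (SE 0.65), CDKN1B, the gene of p27, at 0.72 (SE 0.65), CUL1 at -0.58 (SE 0.65) and CDKN1A at -0.95 (SE 1.25).

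Regulators of mitotic genes had 9 of 15 above 0, with a median of 0.13. Of the DREAM complex genes LIN37 had 19.95 and 29.003 FPKM in K700E_induced, against 6.89 and 0 FPKM in K700E_uninduced, and 24.0 and 0.048 FPKM in WT_induced, against 0.64 and 6.09 FPKM in WT_uninduced (3.69, SE 1.91, on K700E induction), while LIN52 (1.60, SE 1.58) had overlapping groups. MYBL2, an activator of these genes, was at -0.27 (SE 0.34) and NFYC, a subunit of the CCAAT-binding factor, at -0.58 (SE 0.45). The G1 and S cyclins and kinases were balanced at 7 of 14 above 0, with a median of 0.02, as were the CDK inhibitors at 3 of 6, with a median of 0.04. Of the cyclins and kinases CCNE2 was at 0.93 (SE 0.87), CCNE1 at 0.87 (SE 0.62), CDK2 at -0.40 (SE 0.39) and CCND1 at -0.84 (SE 0.89), and of the inhibitors CDKN2C was at 0.63 (SE 0.42) and CDKN2D at -2.17 (SE 1.18). The genes named from the Aurora partners to the CDK inhibitors had limma's adjusted p of 1 on K700E induction.

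Among 43 S phase genes 23 were above 0 (48.4% of all genes), with a median of 0.04, and 3 had an unadjusted p under 0.05 (4.7% of all genes). PCNA, the sliding clamp of DNA replication, had 94.4 and 142 FPKM in K700E_induced, against 54.3 and 61.1 FPKM in K700E_uninduced, a log2 fold change of 1.01 (SE 0.36, limma's adjusted p = 0.978). It had 59.9 and 91.5 FPKM in WT_induced, against 38.5 and 51.9 FPKM in WT_uninduced, also without overlap (0.72, limma's adjusted p = 0.998), and the interaction was 0.29 (limma's adjusted p = 0.999). GINS2, of the replicative helicase, was at 1.21 (SE 0.48, limma's adjusted p = 0.993) and GMNN, the inhibitor of licensing, at -0.70 (SE 0.57, limma's adjusted p = 1). FEN1, the flap endonuclease, was the lowest, with 4.01 and 0 FPKM in K700E_induced, against 35.1 and 36.4 FPKM in K700E_uninduced and 33.0 to 69.7 FPKM in the WT libraries. Its log2 fold change was -4.59 (SE 0.93, limma's adjusted p = 0.878).

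**Figure D4:**
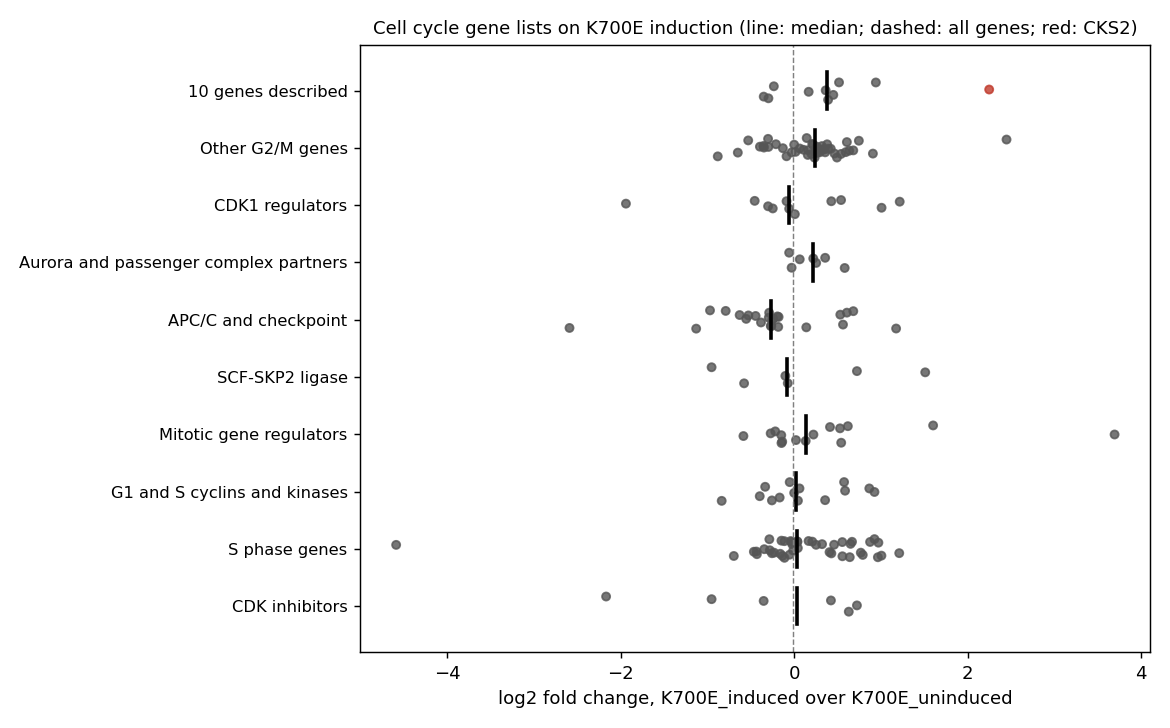
Log2 fold change on K700E induction of each gene tested, by list, with the 10 genes described in the top row, CKS2 in red, the median of each list as a black line and the median of all genes as a dashed line. The other G2 and M genes have a median of 0.24, the anaphase-promoting complex and checkpoint genes one of -0.27 and the S phase genes one of 0.04.

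Since SF3B1 acts in the choice of 3 prime splice sites, the forms of the genes were compared too. Among spliced forms of 300 nt or more, CKS2, CCNA2 and CCNB2 had a single form in all 8 libraries. Among 24409 forms of all genes none passed the test on K700E induction (0% of all forms, with 3.62% at an unadjusted p under 0.05) or for K700E_induced against WT_induced (0%, with 3.93% at an unadjusted p under 0.05). The assembled forms of the 10 genes held 4 introns not in the reference. In 3 of them, in AURKB and CKS1B, the donor was new and the acceptor known, and none of these was in a K700E_induced library. The 1 new acceptor, in AURKB at 47.0 FPKM in WT_induced replicate 1, lay 24 nt downstream of the reference acceptor. None of these 4 introns used an acceptor upstream of a reference acceptor. Spliced assembled transcripts under 300 nt, or not assigned to the genes by shared introns, were not examined. Unspliced assembled fragments on the strand of each gene were only counted, from 0 for CKS1B to 12 for AURKA over the 8 libraries.

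AURKB had the form that set the K700E_induced libraries apart. An assembled form of 3 introns and 1057 nt, at 8108049 to 8110486 on the minus strand of chromosome 17 (hg19), was listed at 24.8 and 37.9 FPKM in K700E_induced and at 0 in the other 6 libraries. It held 28.7% and 60.4% of the gene there, and all its introns are in the reference. The log2 change of its ratio to the rest of the gene was 6.47 (SE 2.14, limma's adjusted p = 0.906), which did not pass. The form entered the form fits only through its share in the K700E_induced libraries, and is named here for those values. Its fit is therefore a description and cannot decide whether the groups differ. Of 24409 forms tested, 122 (0.5%) were seen in both K700E_induced libraries and in no other, and 120, 123 and 115 forms had the same pattern for K700E_uninduced, WT_induced and WT_uninduced. The full-length AURKB transcript NM_004217 was listed at 0 in both WT_induced libraries, where assembled forms held all of the gene's FPKM. With reference transcripts alone AURKB was therefore at 6.31 for K700E_induced against WT_induced and at -6.17 on WT induction, and these passed the test (limma's adjusted p = 0.0443 and 0.0328), which the full gene sums did not.

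The full-length CCNB1 form held 38.8% and 74.1% of the gene in K700E_induced and 100% in the other 6 libraries. The rest was an assembled form of 363 nt in K700E_induced replicate 1 and a different one, of 2022 nt, in replicate 2. The log2 ratio change of the full-length form on K700E induction was -5.67 (SE 2.36, limma's adjusted p = 0.906). This form too entered the form fits only through its shares in the K700E_induced libraries, so its fit is a description. CDC20 had 5 assembled forms, each in 1 library, and AURKA was divided among 7 forms, with NM_198436 holding between 0 and 100% of the gene. In WT_uninduced replicate 1 an assembled form of 10 introns held all of AURKA, at 52.6 FPKM. PLK1 had an assembled form in K700E_uninduced replicate 1 only, with 37.3 of its 133 FPKM.

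**Figure D5:**
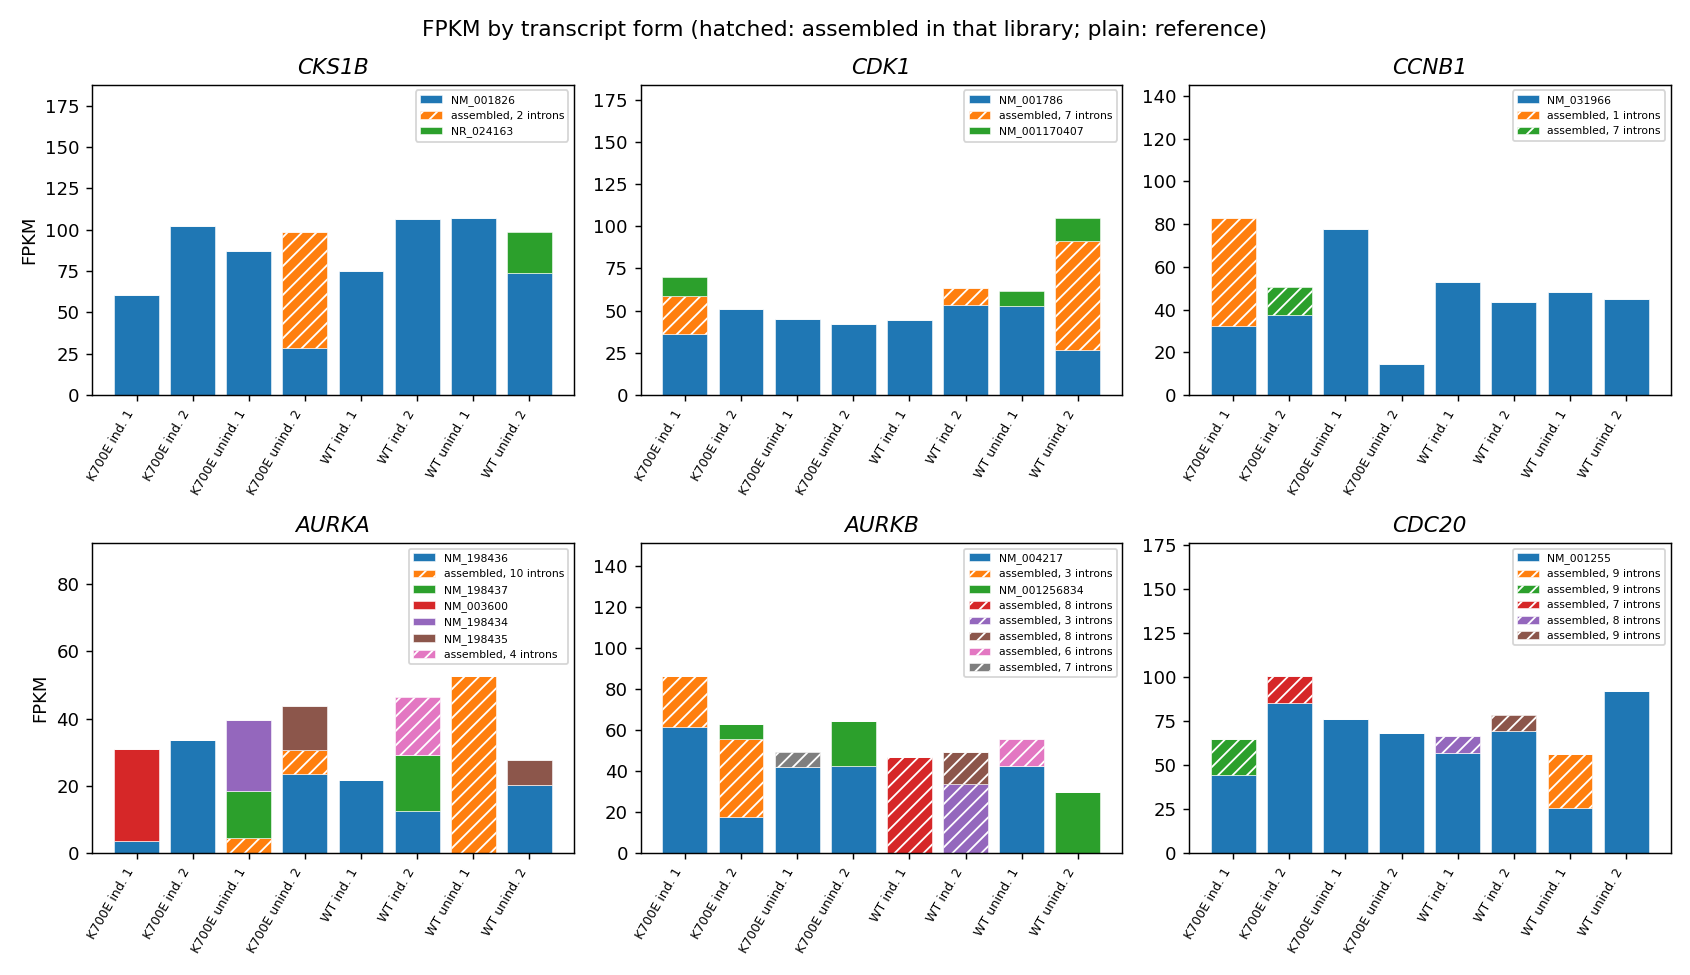
FPKM of the listed forms of 6 genes in each library, stacked, with reference transcripts plain and forms assembled in that library hatched. The AURKB form of 3 introns at 24.8 and 37.9 FPKM appears in both K700E_induced libraries (a different 3-intron form is in WT_induced replicate 2), and AURKA is divided differently in nearly every library.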

How the data were processed

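Values are FPKM per transcript in Cufflinks transcript lists, as the authors deposited them for each of 8 K562 libraries. Per the submitters' processing notes, CASAVA, TopHat and Cufflinks were used, with hg19 as the build. Versions and options: not given in the sources used here. The authors' lists hold the reference transcripts plus those assembled in that library alone, so reads of a gene can be credited to different forms in different libraries.

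A gene's FPKM was summed over its reference transcripts and the assembled spliced transcripts of 300 nt or more assigned to it. Each of these was assigned to the gene with which it shared the most introns, and ties were left out. After median-ratio scaling, 11350 genes with a mean of at least 1 FPKM entered limma 3.58.1 (R 4.3.3) on log2(FPKM + 0.5), with 4 group means fitted over all libraries, a trend, two-sided tests, Benjamini-Hochberg adjustment within each of 5 comparisons and a threshold of 0.05. This log2 scale of the deposited FPKM shrinks the fold change of low genes. Forms holding a mean share of 5% to 95% of a gene were fitted as log2 ratios to its rest. The fits were run on simulated data, where the shifts set for forms were larger than the form changes printed here. That run does not show whether form changes of the printed size could pass. Python 3.11.15, pandas 2.3.3, numpy 2.4.6 and matplotlib 3.10.9 made tables and figures. Promoter sequences are from RefSeq and coding sequences from GENCODE.

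The genes named were the 10 genes, the 2 highest and 2 lowest of each list on K700E induction, and the 5 most and 3 least like CKS2. Genes and lists were chosen with earlier results of these data known. Alternatives were other pseudocounts, filters and scalings, reference transcripts alone, no trend, the compared groups alone, a replicate block and leaving out each library.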

Additional observations from a re-analysis of the deposited data

Results flagged for a closer look

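CKS2 was higher in both K700E_induced libraries than in both K700E_uninduced ones, and lower in both WT_induced libraries than in both WT_uninduced ones. It is listed because its groups lay apart in opposite directions in the K700E and WT lines. The WT difference of -1.06 on the log2 scale did not pass (limma's adjusted p = 0.998) and rests on WT_uninduced replicate 2: without that library it was -0.26. The difference between the inductions was 3.31 on the log2 scale, and 2.50 without that library, and it was not tested, since the K700E values chose the gene. Of all genes tested, 518 (4.56%) lay in opposite directions on the inductions without overlap.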

How the results depend on the processing

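On K700E induction, WT induction, K700E_induced against WT_induced, K700E_uninduced against WT_uninduced and the interaction, 1, 1, 3, 0 and 2 genes passed, none of them among the 10. They were MIR4461, VTRNA1-3 and ACAT2, named after their values were seen. Without a filter on low values the counts were 28, 13, 14, 26 and 15, and with reference transcripts alone 2, 9, 5 and 4 in the same order, leaving out the interaction. The fit without trend gave 4 genes on WT induction, 7 between the induced and 6 between the uninduced lines, the compared groups alone 0 for WT induction and 1 for the induced lines, and a pseudocount of 0.1 gave 2 on K700E induction. Leaving out single libraries gave 1 to 8, 0 to 10, 1 to 11, 0 to 6 and 0 to 3. No form passed in any setting run (0 to 0).

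In the deposited file names all libraries of replicate 1 share a sequencing lane and all of replicate 2 another, so the replicate block is also a lane block. No label ties same-numbered libraries to a culture, and the correlations of their deviations between groups lay between -0.028 and 0.161, the highest for WT_induced with WT_uninduced. With the replicate block 1, 1, 2, 0 and 2 genes passed, the fold change of CKS2 on WT induction had a limma adjusted p of 0.989, and CKS2 stayed at 2.25 on K700E induction.

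The count of 6 of 9 genes above 0 on K700E induction ranged from 4 to 7 and that of 33 other G2 and M genes from 29 to 34 over the libraries left out. These counts were put under the settings after their values were seen. Reference transcripts alone gave the opposite sign for CKS1B (0.66), AURKB (-0.39) and CDC20 (-0.21) on K700E induction, for PLK1 (0.015), AURKA (2.82), AURKB (-6.17) and CDC20 (0.39) on WT induction, for CDK1 (-0.014), CCNB1 (-0.49) and CDC20 (-0.051) for K700E_induced against WT_induced, for PLK1 (-0.034) and CDC20 (0.55) between the uninduced lines, and for CKS1B (0.83), CCNB1 (-0.022) and CDC20 (-0.60) in the interaction. That setting drops the assembled forms. Without scaling CDC20 was at 0.0024 on WT induction and 0.0022 between the uninduced lines, and with upper-quartile scaling CDC20 was at 0.015 on WT induction and AURKA at -0.0024 for K700E_induced against WT_induced. CKS2 kept its direction in all 5 comparisons under every setting run.

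On K700E induction, leaving out single libraries moved CKS1B from -0.61 to 0.14, CDK1 from 0.23 to 0.67, CCNA2 from -0.023 to 0.75, CCNB1 from -0.22 to 2.11, CCNB2 from 0.30 to 0.73, PLK1 from -0.57 to -0.025, AURKB from 0.16 to 0.62 and CDC20 from -0.15 to 0.48. On WT induction, leaving out single libraries moved CKS2 from -1.87 to -0.26, CKS1B from -0.45 to 0.042, CDK1 from -0.98 to -0.23, CCNA2 from -0.25 to 0.27, CCNB1 from -0.11 to 0.19, CCNB2 from -0.36 to 0.18, PLK1 from -0.19 to 0.15, AURKA from -0.79 to 0.27, AURKB from -0.22 to 0.69 and CDC20 from -0.35 to 0.34. For K700E_induced against WT_induced, leaving out single libraries moved CKS1B from -0.57 to 0.19, CDK1 from -0.082 to 0.42, CCNA2 from -0.024 to 0.75, CCNB1 from 0.06 to 0.78, CCNB2 from 0.43 to 0.96, PLK1 from -0.30 to 0.14, AURKA from -0.51 to 0.54, AURKB from 0.38 to 0.83 and CDC20 from -0.15 to 0.47. For K700E_uninduced against WT_uninduced, leaving out single libraries moved CKS2 from -2.24 to -0.63, CKS1B from -0.28 to -0.032, CDK1 from -1.26 to -0.52, CCNA2 from -0.25 to 0.27, CCNB1 from -1.64 to 0.69, CCNB2 from -0.083 to 0.26, PLK1 from -0.075 to 0.47, AURKA from -0.36 to 0.58, AURKB from -0.0048 to 0.91 and CDC20 from -0.35 to 0.34. For the interaction, leaving out single libraries moved CKS2 from 2.50 to 4.12, CKS1B from -0.41 to 0.34, CDK1 from 0.68 to 1.43, CCNA2 from -0.033 to 0.74, CCNB1 from -0.27 to 2.06, CCNB2 from 0.34 to 0.88, PLK1 from -0.55 to -0.0042, AURKA from -0.62 to 0.44, AURKB from -0.30 to 0.61 and CDC20 from -0.18 to 0.51. Of the form tests, 32 values in 23 of 40 results took the opposite sign, with libraries left out. Having 2 libraries per group limits the precision, as the SE values show.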
